A study of Homo sapiens with 6 samples.

Results

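Immediate early genes are the genes that a cell transcribes within minutes of a growth factor or stress signal, from transcription machinery that is already in place. The genes described here are the 10 chosen by symbol from the 61806 rows of the expression table: FOS, FOSB, JUN, JUNB, JUND, EGR1, IER2, IER5, DUSP1 and MYC. Each symbol matched 1 row, and all 10 were among the 16834 genes with enough counts to be tested. ATF3, which also belongs to this response, was left out by the rule.

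The RNA came from 293T cells, a human embryonic kidney line that carries the SV40 large T antigen and takes up plasmids readily. Cells received a plasmid named GFP-812 in 3 libraries and a plasmid named GFP, a green fluorescent protein, in 3 libraries, in both groups with the lipid reagent Lipo2000. The name GFP-812 is not explained in the labels, nor are the time of harvest and the share of cells that took up plasmid, and the series title speaks of truncated NEK1 mutants and ribosomal RNA. All 6 libraries come from 1 cell line grown in serum-containing medium, and no library of untransfected cells was analysed here. Separate cultures are not stated for the replicates, so each p-value reflects how far these 6 libraries vary, and part of that variation may be technical.

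Growth factor receptors signal to these genes through RAS and RAF to the MAP kinases ERK1 and ERK2, and stress through the kinases JNK and p38. The kinases phosphorylate factors that already sit on the promoters, chiefly serum response factor with its ELK partners at CArG boxes and CREB at cyclic AMP response elements. The transcripts are short-lived, several through AU-rich elements, and the response ends by decay and by feedback from genes such as DUSP1. FOS and JUN family proteins pair through leucine zippers to form AP-1, EGR1 is a zinc finger factor, MYC pairs with MAX at E-boxes, IER2 and IER5 are small nuclear proteins, and DUSP1 is a phosphatase of MAP kinases.

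The promoters of EGR1 and IER5 are shown because these were the 2 members past the test, in opposite directions, and those of FOS and DUSP1 because they carry the cyclic AMP response element in members that did not pass. Each line gives the 250 bases before the RefSeq start on GRCh38.p14, read 5′ to 3′ on the gene's strand.
EGR1, chr5:138465229-138465478, plus strand: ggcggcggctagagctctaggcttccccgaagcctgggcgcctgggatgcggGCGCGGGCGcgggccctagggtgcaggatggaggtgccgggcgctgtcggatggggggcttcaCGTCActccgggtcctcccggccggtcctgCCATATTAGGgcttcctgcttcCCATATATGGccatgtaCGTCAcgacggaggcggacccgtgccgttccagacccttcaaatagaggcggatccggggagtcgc
IER5, chr1:181088450-181088699, plus strand: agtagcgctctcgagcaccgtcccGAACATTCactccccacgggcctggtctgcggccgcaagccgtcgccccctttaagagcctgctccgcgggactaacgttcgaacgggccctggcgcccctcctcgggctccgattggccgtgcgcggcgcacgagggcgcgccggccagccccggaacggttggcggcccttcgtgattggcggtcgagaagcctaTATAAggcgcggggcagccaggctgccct
FOS, chr14:75278578-75278827, plus strand: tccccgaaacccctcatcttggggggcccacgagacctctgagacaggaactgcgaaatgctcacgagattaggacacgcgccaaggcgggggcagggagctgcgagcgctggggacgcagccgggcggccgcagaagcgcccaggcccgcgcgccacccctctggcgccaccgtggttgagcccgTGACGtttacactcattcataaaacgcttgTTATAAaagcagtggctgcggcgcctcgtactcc
DUSP1, chr5:172771196-172771445, minus strand: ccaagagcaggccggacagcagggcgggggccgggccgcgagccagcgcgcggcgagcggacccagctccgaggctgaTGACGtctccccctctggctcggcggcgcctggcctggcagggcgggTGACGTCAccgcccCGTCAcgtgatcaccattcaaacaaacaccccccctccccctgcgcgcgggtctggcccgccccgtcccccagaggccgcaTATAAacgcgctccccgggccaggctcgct
Capitals mark letters that match a motif on either strand: the CArG box, TGACG (the core of the cyclic AMP response element), TGANTCA (AP-1), GCGNGGGCG (EGR1), GAANNTTC or TTCNNGAA (paired heat shock units) and TATAA. In FOS, TATAA matches on both strands overlap. In DUSP1, 2 TGACG matches on opposite strands overlap to form the full element.

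RefSeq promoters were found for 9 of the 10 members, without MYC. EGR1 had 2 CArG boxes, at -105 to -96 and -83 to -74 from its start, 2 TGACG matches and 1 GCGNGGGCG match. IER5 had no TGACG, and its only matches were the heat shock pair at -226 to -219 and TATAA at -29 to -25. FOS had TGACG at -64 to -60, and DUSP1 had 4 TGACG matches between -172 and -107. Of the 9 members, 8 had TGACG, against 21.2% of 35116 promoters of the same length. A CArG box was present in 1 member and 1.16% of all promoters, TATAA in 6 members and 18.9%, GCGNGGGCG in 1 member and 8.42%, a heat shock pair in 2 members and 11.6%, and TGANTCA in 0 members and 6.57%. These are matches of letters in a short window, and say nothing of factors bound there or further away.

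Library totals were 14255148 to 17613814 counts in GFP-812 cells and 16061389 to 16144531 counts in GFP cells. NEK1, the gene that the series title names, stood at 493.7 to 562.7 FPKM in GFP-812 libraries and 3.82 to 3.99 FPKM in GFP libraries. FPKM is the count scaled by exonic length and by the total of the library. GFP replicate 3 stood apart in the series as a whole: the number of genes called by edgeR was 647 with all libraries and 1317 without it, against 209 to 475 when 1 of the other 5 was left out. Of 8 epithelial markers, KRT8 and KRT18 were above 1 FPKM on average, while CDH1 and EPCAM averaged 0.66 and 0.978 FPKM. Of 10 kidney segment markers only LRP2, at 1.53 FPKM, was above 1, and UMOD had no count in any library. The neuronal intermediate filament genes NEFM and NEFL, long known in HEK293 cells, averaged 68.2 and 33.25 FPKM in GFP-812 cells and 56.0 and 29.8 FPKM in GFP cells. Of the blood and endothelial markers HBB had no count and PTPRC 0 or 1 count in each library.

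In GFP-812 cells 1 immediate early gene rose, IER5, by 1.17-fold, and 1 fell, EGR1, to 0.727 of its GFP level. The other 8 did not pass the test. Called here means an adjusted p under 0.05 in edgeR's quasi-likelihood test over all 16834 genes, of which 3.84% were called, 1.18% risen and 2.67% fallen. Read against these shares, each of the members' counts is a single gene. The median log2 fold change was 0.01 over the 10 members and 0.01 over all genes tested, with 5 members fitted above 0 and 5 below.

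**Figure D1:**
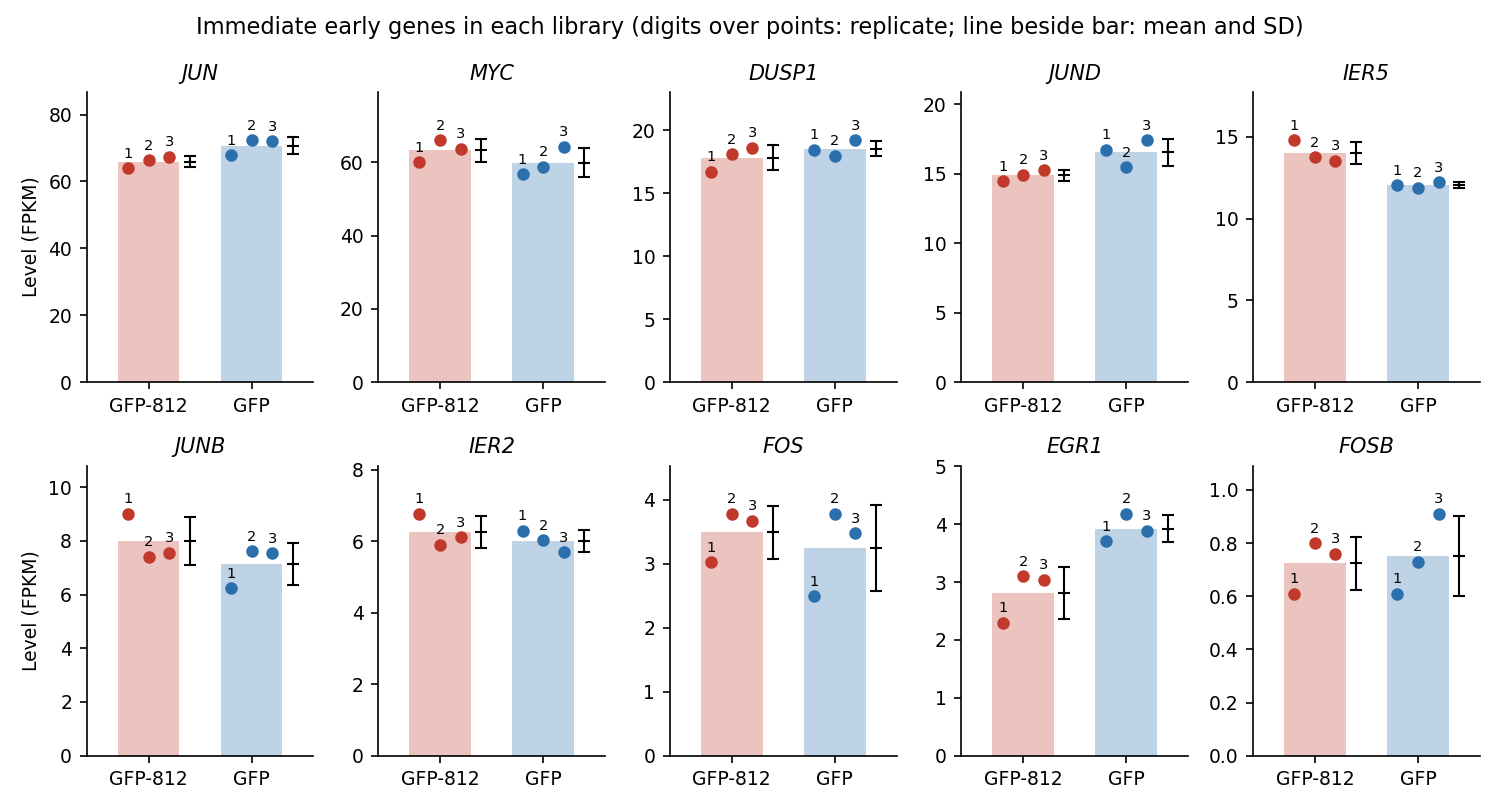
Level of each immediate early gene in FPKM (y axis, a scale of its own in each panel, starting at 0) in GFP-812 and GFP libraries (x axis); bars are means of 3 libraries, points are libraries with their replicate number, and the line beside each bar is the mean and SD. In EGR1 all 3 GFP-812 libraries lie below the GFP libraries, at 2.3 to 3.1 against 3.71 to 4.18 FPKM, and in IER5 all 3 lie above, at 13.5 to 14.8 against 11.9 to 12.2 FPKM.

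EGR1, the zinc finger factor that carries growth factor signals to its target genes, was the member with the largest fitted change. EGR1 (ENSG00000120738, hg38 chromosome 5, 138465479 to 138469303, plus strand) stood at 2.3, 3.1 and 3.04 FPKM in GFP-812 replicates 1, 2 and 3, against 3.71, 4.18 and 3.89 FPKM in GFP replicates 1, 2 and 3. The groups did not overlap, and GFP-812 replicate 1 was the lowest library. These levels rested on 103, 152 and 168 counts in GFP-812 libraries and on 188, 211 and 196 counts in GFP libraries. The means were 2.81 ± 0.446 FPKM in GFP-812 cells and 3.93 ± 0.237 FPKM in GFP cells (SD, n = 3 each). edgeR fitted a log2 fold change of -0.46 (SE 0.131, 95% interval -0.72 to -0.20, adjusted p = 0.031). Between GFP-812 libraries EGR1 varied by 15.8% (coefficient of variation), where counting error alone gives 8.42%, and between GFP libraries by 6.04%, where counting error gives 7.1%.

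The EGR1 call held without GFP replicate 3 (adjusted p = 0.0292) and was lost in edgeR without any other single library: without GFP-812 replicate 1 (log2 fold change -0.35, adjusted p = 0.199), 2 (-0.53, 0.0572) or 3 (-0.52, 0.0622), or GFP replicate 1 (-0.50, 0.0581) or 2 (-0.42, 0.119). Its direction was the same in each of these fits. It did not pass in limma on log2(FPKM + 1), where the log2 fold change was -0.38 (adjusted p = 0.158) and 3 of 12984 genes passed in all.

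IER5, a nuclear protein known to be induced by heat shock factor HSF1 and to regulate that factor in turn, was the member that rose. IER5 (ENSG00000162783, hg38 chromosome 1, 181088700 to 181092900, plus strand) stood at 14.8, 13.8 and 13.5 FPKM in GFP-812 replicates 1, 2 and 3, against 12.0, 11.9 and 12.2 FPKM in GFP replicates 1, 2 and 3. Every GFP-812 library was above every GFP library, with GFP-812 replicate 1 the highest. Counts were 885 to 1001 in GFP-812 libraries and 803 to 825 in GFP libraries. The means were 14.02 ± 0.667 FPKM in GFP-812 cells and 12.0 ± 0.176 FPKM in GFP cells (SD, n = 3 each). The fitted log2 difference was 0.23 (SE 0.0617, 95% interval 0.11 to 0.35, edgeR adjusted p = 0.0196). DESeq2 also called IER5 (adjusted p = 0.0339), while it gave EGR1 no adjusted p under its own filter on low means.

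Leaving out 1 library kept the call of IER5 for GFP-812 replicate 3 (edgeR adjusted p = 0.0376) and GFP replicate 3 (0.0141). It was lost for GFP-812 replicate 1 (0.162), GFP-812 replicate 2 (0.0767), GFP replicate 1 (0.0739) and GFP replicate 2 (0.0694), at log2 fold changes of 0.19 to 0.25, and in limma on log2(FPKM + 1) (0.20, adjusted p = 0.126). Heat shock chaperones are other known targets of HSF1, and of the 14 on the list 0 rose and 3 fell, at a median log2 fold change of -0.04. The other 11 did not pass, and in all 6 were fitted above 0 and 8 below. A part of HSF1 in the value of IER5 was not tested. Over all genes tested 1.18% rose and 2.67% fell. CHORDC1, a co-chaperone, was at 17.5 ± 0.265 against 20.9 ± 0.308 FPKM, HSPH1, a nucleotide exchange factor for HSP70, at 33.6 ± 1.13 against 39.8 ± 1.14 FPKM, and DNAJA1, a J-domain co-chaperone, at 152.1 ± 5 against 170.2 ± 8.85 FPKM in GFP-812 and GFP cells (SD, n = 3 each). Their log2 fold changes were -0.25, -0.23 and -0.15 (edgeR adjusted p = 7.57e-05, 0.000148 and 0.0185), and the call of DNAJA1 was lost on leaving out GFP-812 replicate 2 (0.129), GFP-812 replicate 3 (0.23) or GFP replicate 1 (0.274).

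**Figure D2:**
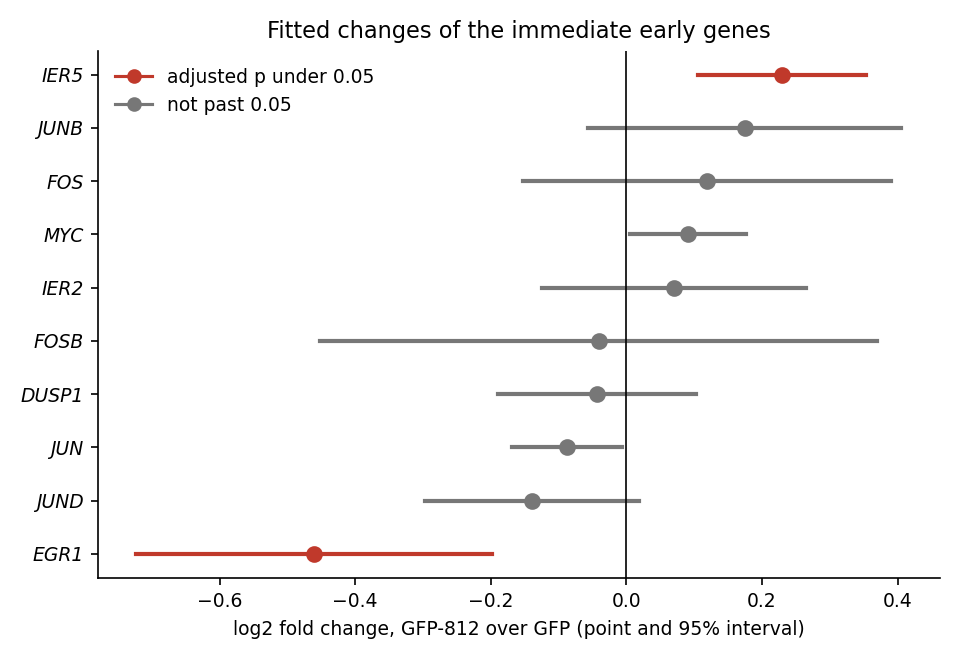
Fitted log2 fold change of each immediate early gene, GFP-812 over GFP (x axis), by gene (y axis); points are edgeR estimates from 3 libraries a group, lines are 95% intervals and red marks an adjusted p under 0.05. EGR1 at -0.46 and IER5 at 0.23 are the 2 red genes, and the interval of FOSB, the gene with the fewest counts, is the widest, from -0.45 to 0.37.

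Among the AP-1 genes, JUN carried most of the message in both groups. JUN (ENSG00000177606, chromosome 1, 58776845 to 58784048, minus strand), the main partner of FOS, stood at 64.05, 66.4 and 67.4 FPKM in GFP-812 replicates 1, 2 and 3, against 67.9, 72.3 and 72.0 FPKM in GFP replicates 1, 2 and 3. The groups did not overlap, but by a small margin, and JUN did not pass the test (log2 fold change -0.09, SE 0.0408, 95% interval -0.17 to -0.01, unadjusted p = 0.0363, edgeR adjusted p = 0.265). JUND (ENSG00000130522, chromosome 19, 18279694 to 18281622, minus strand), the JUN family member least dependent on stimulation, was at 14.4, 14.9 and 15.25 FPKM in GFP-812 libraries and at 16.7, 15.5 and 17.4 FPKM in GFP libraries. These groups did not overlap either, and the log2 fold change was -0.14 (SE 0.0788, 95% interval -0.30 to 0.02, edgeR adjusted p = 0.39).

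JUNB (ENSG00000171223, chromosome 19, 12791486 to 12793315, plus strand), a JUN relative with weaker activation of its own, was at 9.01, 7.42 and 7.57 FPKM in GFP-812 replicates 1, 2 and 3, against 6.23, 7.61 and 7.55 FPKM in GFP replicates 1, 2 and 3. Its groups overlapped, with replicate 1 the highest library in GFP-812 cells and the lowest in GFP cells, and its log2 fold change was 0.17 (95% interval -0.06 to 0.41, edgeR adjusted p = 0.471). Its value is uncertain, because its whole length lies within HOOK2 on the other strand, which had 188 to 258 counts in a library, and whether the counting used strand is not given in the sources used here. JUN made up 73.2% to 74.8% of the summed FPKM of the 3 JUN genes in GFP-812 libraries and 74.3% to 75.8% in GFP libraries.

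FOS (ENSG00000170345, chromosome 14, 75278826 to 75282230, plus strand), the classic early response gene, was low. It stood at 3.02, 3.78 and 3.67 FPKM in GFP-812 replicates 1, 2 and 3, against 2.49, 3.78 and 3.48 FPKM in GFP replicates 1, 2 and 3. The groups overlapped almost fully, and replicate 1 was the lowest library in both. The log2 fold change was 0.12 (SE 0.136, 95% interval -0.15 to 0.39, edgeR adjusted p = 0.724), so that a rise of up to 1.31-fold and a fall to 0.9 of the GFP level were both inside the interval. FOS varied by 11.8% between GFP-812 libraries and by 20.8% between GFP libraries, against counting errors of 7.52% and 7.75%. Its fitted direction turned without GFP replicate 1 (-0.04, adjusted p = 0.947).

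FOSB (ENSG00000125740, chromosome 19, 45467995 to 45475179, plus strand), a FOS relative that also pairs with JUN proteins in AP-1, was the lowest member. It was at 0.61, 0.8 and 0.76 FPKM in GFP-812 replicates 1, 2 and 3, against 0.61, 0.73 and 0.91 FPKM in GFP replicates 1, 2 and 3, from 48 to 81 counts a library. The groups overlapped, and its log2 fold change was -0.04 (95% interval -0.45 to 0.37, edgeR adjusted p = 0.952). It turned to 0.06 without GFP-812 replicate 1 and to 0.12 without GFP replicate 3. Changes inside that interval are compatible with these libraries, and the smallest change that could have been detected was not estimated. FOSB lies wholly within ERCC1 on the other strand, which had 301 to 386 counts in a library, so that its value too is uncertain. Summed over each family, the JUN genes stood 19.4 to 24.1 times above FOS and FOSB in GFP-812 libraries and 21.1 to 29.3 times above them in GFP libraries, on the FPKM scale.

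MYC (ENSG00000136997, chromosome 8, 127735434 to 127742951, plus strand), a growth-promoting factor that is induced early after serum, was close to JUN in level. It stood at 60.0, 66.0 and 63.8 FPKM in GFP-812 replicates 1, 2 and 3, against 56.7, 58.8 and 64.2 FPKM in GFP replicates 1, 2 and 3. GFP replicate 3 lay inside the GFP-812 range and the other GFP libraries lay below it. The log2 fold change was 0.09 (SE 0.0429, 95% interval 0.00496 to 0.18, unadjusted p = 0.0386, edgeR adjusted p = 0.271). Without GFP replicate 3 it was 0.14 and passed (adjusted p = 0.0123), which makes 2 risen members in that fit. MYC overlaps CASC11 on the other strand, which had at most 5 counts in a library.

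IER2 (ENSG00000160888, chromosome 19, 13150411 to 13154911, plus strand), a nuclear regulator induced by growth factors, was at 6.77, 5.91 and 6.12 FPKM in GFP-812 replicates 1, 2 and 3, against 6.3, 6.04 and 5.7 FPKM in GFP replicates 1, 2 and 3. The groups overlapped (log2 fold change 0.07, 95% interval -0.12 to 0.26, edgeR adjusted p = 0.785). DUSP1 (ENSG00000120129, chromosome 5, 172768096 to 172771195, minus strand), the phosphatase that switches MAP kinases off again, was at 16.7, 18.1 and 18.6 FPKM in GFP-812 libraries and at 18.4, 17.97 and 19.2 FPKM in GFP libraries. Its groups overlapped as well, at a log2 fold change of -0.04 (95% interval -0.19 to 0.10, edgeR adjusted p = 0.832). DUSP1 shares 3100 bases, its whole length, with a gene without a symbol on the other strand, which had 2 to 9 counts in a library. IER2 shares 1123 and 662 bases with such genes, which had 0 counts in each library. The effect of these overlaps on the values of DUSP1 and IER2 was not tested.

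The order of levels per length was JUN, MYC, DUSP1, JUND, IER5, JUNB, IER2, FOS with EGR1, and FOSB. JUN was above MYC in 6 of 6 libraries although their ranges overlapped, and both were above at least 96.8% of the genes tested. A gap followed: the lowest MYC value was 56.7 FPKM and the highest DUSP1 value 19.2 FPKM. DUSP1, JUND and IER5 formed a middle group with overlapping ranges between neighbours, in which DUSP1 was above JUND in 6 and JUND above IER5 in 5 of 6 libraries. JUNB and IER2 also overlapped, with JUNB above IER2 in 5 of 6. FOS and EGR1 both averaged 3.37 FPKM over the 6 libraries, but their order went by group: EGR1 was below FOS in each of the 3 GFP-812 libraries (means 2.81 and 3.49 FPKM) and above it in each of the 3 GFP libraries (3.93 and 3.25 FPKM). The ranges of the 2 genes overlapped in both groups. FOSB lay below every other member and above 20.1% of the genes tested.

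In 4 of the 10 members the groups did not overlap, 1 higher and 3 lower in GFP-812 cells, beside 20.6% of all genes tested, 8.16% higher and 12.4% lower. Likewise 4 members, EGR1, IER5, JUN and MYC, had an unadjusted p under 0.05 in edgeR, beside 16.1% of all genes. All members together took 0.0688% to 0.0724% of counts in GFP-812 libraries and 0.068% to 0.0738% in GFP libraries. Replicate 1 was the lowest library of both groups for 5 members, FOS, FOSB, JUN, EGR1 and MYC, and for 13.1% of all genes tested, a pattern looked for after the values were seen. The spread between libraries that edgeR fitted (biological coefficient of variation) was 3.31% to 11.9% for the members, with a median of 5.48%, and had a median of 6.38% over all genes tested.

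**Figure D3:**
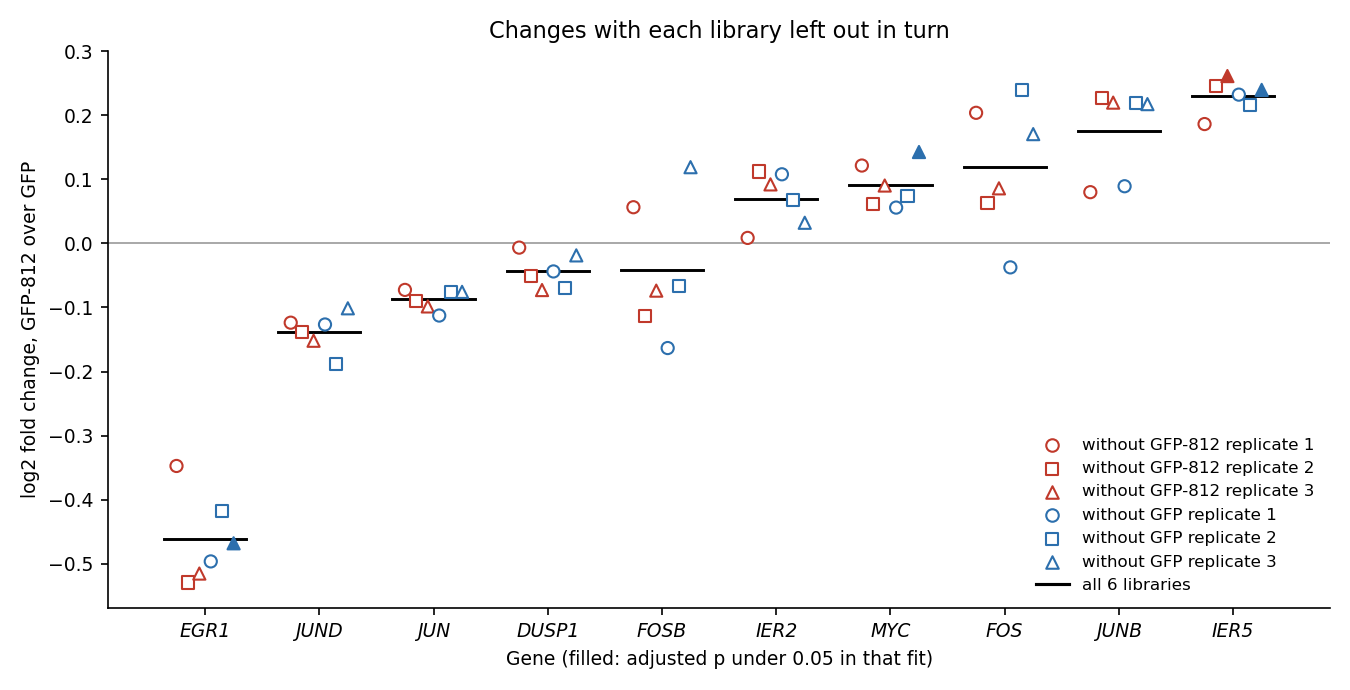
Log2 fold change, GFP-812 over GFP (y axis), of each immediate early gene (x axis) with all 6 libraries (black lines) and with each library left out in turn (red for a GFP-812 library, blue for a GFP library; filled where the adjusted p was under 0.05). EGR1 stays between -0.53 and -0.35 and IER5 between 0.19 and 0.26, while FOS and FOSB have points on both sides of 0.

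The mean profile of the members over the 6 libraries, each member centred on its own mean, spanned only -0.06 to 0.03 log2 units in GFP-812 libraries and -0.08 to 0.07 in GFP libraries. Among 7000 other genes with a mean of at least 5 FPKM, the 5 with the highest Pearson r to it were INTS3 (r = 0.991), SAP30 (0.983), SDHAF1 (0.959), CDCA7L (0.947) and OSBPL6 (0.944). These r describe 6 libraries that share 2 groups and their depths, and are the top of a long ranking.

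Of 45 further immediate early and primary response genes, 40 could be tested, 2 rose, 1 fell and 37 did not pass, with a median log2 fold change of 0.06. Over all genes tested the median was 0.01, with 1.18% risen and 2.67% fallen. PPP1R15A, a phosphatase subunit induced by stress, fell to 16.4 ± 1.04 FPKM in GFP-812 cells, against 22.0 ± 2.72 FPKM in GFP cells (SD, n = 3 each; log2 fold change -0.42, edgeR adjusted p = 5.33e-05), and its call held without each library. GADD45A, a stress-induced growth arrest gene, rose to 25.6 ± 1.78 FPKM, against 21.6 ± 0.998 FPKM (SD, n = 3 each; 0.26, adjusted p = 0.0151), a call lost on leaving out GFP-812 replicate 2 (0.0531), GFP-812 replicate 3 (0.193) or GFP replicate 1 (0.133). Called genes on this list numbered 1, PPP1R15A, without GFP-812 replicate 2. The close relatives of the members did not pass: FOSL1, FOSL2, EGR2 and EGR3 had log2 fold changes of -0.24, -0.05, 0.71 and 0.35, from at most 48 counts a library for all but FOSL2.

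CXCL8, a chemokine known to be induced by AP-1 and NF-kappaB, was the most uneven gene of that list. It was at 4.82, 5.99 and 5.07 FPKM in GFP-812 replicates 1, 2 and 3, against 0.1, 0.17 and 4.91 FPKM in GFP replicates 1, 2 and 3. GFP replicate 3 thus stood with the GFP-812 libraries and far above the other GFP libraries, which had 4 and 7 counts. The call (log2 fold change 1.63, edgeR adjusted p = 0.002) did not hold on leaving out GFP-812 replicate 2 (0.0696) or, in the other group, replicate 2 (0.0589). The log2 fold change was 1.08 with GFP replicate 1 left out and 5.31 with GFP replicate 3 left out.

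The factors that act on these promoters, and the kinases above them, gave a few small falls, beside 2.67% fallen over all genes tested. Of 16 promoter factors and coactivators 0 rose and 2 fell, both of them histone acetyltransferases that work with CREB: EP300 at 8.29 ± 0.146 against 10.4 ± 0.98 FPKM and CREBBP at 3.87 ± 0.241 against 4.7 ± 0.425 FPKM in GFP-812 and GFP cells (SD, n = 3 each; log2 fold changes -0.31 and -0.27, edgeR adjusted p = 0.000109 and 0.00466). The median of that list was -0.09, and SRF and ELK1, the factors of the CArG box, were at 0.09 and 0.01 (adjusted p = 0.542 and 0.972). CREBBP was lost on leaving out GFP-812 replicate 2 (0.0726), GFP-812 replicate 3 (0.0888) or GFP replicate 1 (0.152), with 1 fallen factor in each case, while 5 fell with GFP replicate 3 left out. Of 35 genes of the MAP kinase cascades 0 rose and 2 fell, with a median of -0.01. BRAF, a kinase that passes the signal of RAS on towards ERK, was at 3.77 ± 0.0611 FPKM in GFP-812 cells and 4.64 ± 0.194 FPKM in GFP cells (SD, n = 3 each; -0.29, adjusted p = 0.000162), and its call held without each library in turn. The list had 1 fallen gene with GFP-812 replicate 2, GFP-812 replicate 3 or, among GFP libraries, replicate 1 or 2 left out, and in the last case 1 risen gene as well.

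Of 20 genes of negative feedback on these kinases 0 rose and 2 fell, at a median of -0.07, beside 1.18% risen and 2.67% fallen over all genes tested. Both are relatives of DUSP1 that act mainly on JNK and p38. DUSP8 was at 2.23 ± 0.0153 FPKM in GFP-812 cells and 3.43 ± 0.45 FPKM in GFP cells, and DUSP16 at 8.7 ± 0.175 and 10.6 ± 0.287 FPKM (SD, n = 3 each; log2 fold changes -0.61 and -0.27, edgeR adjusted p = 0.000405 and 0.00155). Both calls held without each library in turn. DUSP6, the feedback phosphatase of ERK, averaged only 0.265 FPKM (0.01, adjusted p = 0.992), and NAB1 and NAB2, which repress EGR1, were at 0.01 and 0.09 (0.955 and 0.705).

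Partners, decay factors and targets of the members were mostly not past the test, beside 3.84% called over all genes tested. Of 17 bZIP partners of FOS and JUN 15 were tested and 0 called, with ATF4 at 193.8 ± 1.32 and 187.1 ± 5.99 FPKM and ATF2 at 17.5 ± 1.02 and 19.0 ± 0.964 FPKM in GFP-812 and GFP cells (SD, n = 3 each); 5 had an unadjusted p under 0.05, DESeq2 called 0 and edgeR 1 without GFP replicate 3. Of 11 MYC partners and antagonists 1 fell, MXD1, an antagonist that competes with MYC for MAX, at 1.68 ± 0.21 against 2.74 ± 0.287 FPKM (SD, n = 3 each; -0.69, adjusted p = 7.74e-05). The edgeR call of MXD1 held without each library, but limma on log2(FPKM + 1) did not call it (adjusted p = 0.111), DESeq2 gave it no adjusted p, and DESeq2 called 0 genes of the list. MAX and MXI1 were at -0.11 and 0.11 (0.291 and 0.266). Of 16 factors of AU-rich mRNA decay 1 fell, TIA1, at 21.5 ± 0.822 against 24.3 ± 0.323 FPKM (SD, n = 3 each; -0.17, adjusted p = 0.0187). The count was 0 with GFP-812 replicate 2 (TIA1 at 0.103), GFP-812 replicate 3 (0.234) or GFP replicate 1 (0.113) left out, and with GFP replicate 3 left out it was 5. HNRNPD and KHSRP were at -0.02 and -0.11 (0.846 and 0.0893). KHSRP passed in DESeq2 (adjusted p = 0.0326), in edgeR with total counts (0.0419) and with GFP replicate 3 left out (0.0118), and the list had 2 called genes in the first of these and 2 in the next.

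Of 20 known AP-1 and EGR1 targets, 17 were tested, 1 rose and 0 fell, at a median of 0.09, beside 1.18% risen and 2.67% fallen over all genes tested. The count of called targets was 0 with GFP-812 replicate 2, GFP-812 replicate 3 or, among GFP libraries, replicate 1 or 2 left out, and 2 with GFP-812 replicate 1 or else GFP replicate 3 left out. VIM, an intermediate filament gene, and EZR, a linker of membrane and actin, were at 0.02 and -0.07 (0.825 and 0.448).

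**Figure D4:**
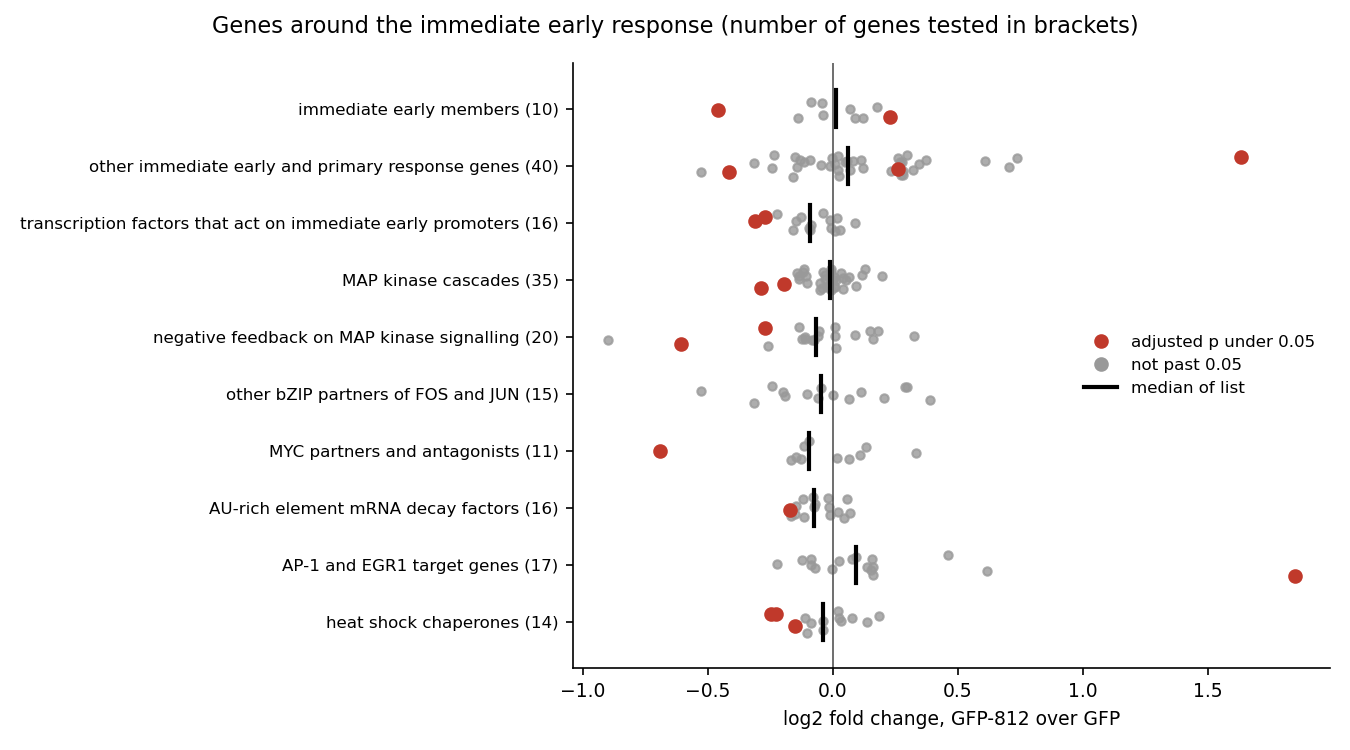
Log2 fold change, GFP-812 over GFP (x axis), of each gene tested on the lists of immediate early genes and of genes around them (y axis, number tested in brackets); red points had an adjusted p under 0.05 and black lines are list medians. List medians lie between -0.09 and 0.09, and the red point of CXCL8 is at 1.63.

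Markers of other cell types moved with the groups in part, beside 1.18% risen and 2.67% fallen over all genes tested. The summed level of the 8 neuronal lineage markers was 100.2 to 110.2 FPKM in GFP-812 libraries and 85.2 to 96.0 FPKM in GFP libraries, and 2 of them rose, NEFM (log2 fold change 0.30, edgeR adjusted p = 1.46e-05) and NEFL (0.17, 0.0372). NEFM and NEFL made up most of that sum. The other 6 markers of the list were at most 3.1 FPKM in any library: TUBB3 averaged 0.0667 FPKM and was too low to test, and INA, STMN2, MAP2, RBFOX3 and SYP had log2 fold changes of 0.26, -0.48, -0.02, 0.16 and 0.01 (adjusted p = 0.646 to 0.984). NEFL was lost on leaving out any of 4 libraries (0.0684 to 0.343) and kept on leaving out GFP-812 replicate 1 or else GFP replicate 3. The 12 blood, endothelial and stromal markers summed to 4.3 to 4.56 FPKM and 2.76 to 3.94 FPKM, with ACTA2 risen at 16 to 19 against 5 to 8 counts (1.61, 0.0423), a call that was lost on leaving out any library but GFP replicate 3. COL1A1, the collagen gene that was the highest of that list, did not pass (0.08, adjusted p = 0.804). The epithelial markers summed to 27.2 to 30.1 FPKM and 26.3 to 26.7 FPKM, and the kidney segment markers to 2.15 to 2.47 FPKM and 1.99 to 2.34 FPKM. On these lists 5 of 8 and 3 of 10 genes were tested in edgeR, with 0 called on either and 2 and 1 at an unadjusted p under 0.05. DESeq2 also called 0, but gave LRP2 and AQP1 of the kidney list no adjusted p. KRT8 and KRT18 of the epithelial list had adjusted p of 0.195 and 0.638 in DESeq2. Whether the remaining tested genes of these lists were given an adjusted p was not looked at. The 0 of DESeq2 therefore does not cover every gene tested in edgeR. The part of these markers in the values of EGR1 and IER5 was not tested. In such bulk RNA, fewer cells that express a gene and less RNA of it in each cell cannot be told apart.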

How the data were processed

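RNA-seq of 293T cells was analysed in 3 GFP-812 and 3 GFP libraries, grouped by sample title. Per the labels' protocols, libraries were made from poly(A) RNA with random priming. HISAT2 2.2.1, HTSeq 0.6.1, cutadapt 1.9.1, FastQC 0.10.1 and hg38 are named, per the submitters' processing notes. The strand setting and annotation release were not given in the sources used here. The authors deposited 1 table with a raw read count and, per the file headers, an FPKM for each of 61806 genes and 6 libraries. Count over exonic size and library total returned 100% of FPKM within 0.0051.

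The 10 members and the 13 other lists (232 entries, each matched) were chosen with earlier results of these data known. edgeR 4.0.16 in R 4.3.3 (filterByExpr, TMM, group as single term, quasi-likelihood test, 2-sided) was fitted to all counts, with Benjamini-Hochberg adjustment over 16834 genes and a threshold of 0.05. SE came from the F statistic, and intervals are 95%. They cover the spread between libraries; counting errors quoted cover counting only. The fit was tested on simulated data. Named genes were all members, NEK1, up to 6 called genes of each list or, where fewer than 2 were called, the 2 with the highest level as well, and the 5 genes most like the members. FOSL1, FOSL2, EGR2, EGR3, SRF, ELK1, DUSP6, NAB1, NAB2, CDH1, EPCAM, the 6 lower neuronal markers and the absent markers were named outside this rule, after their values were seen, and a few genes the rule names are not reported here. Alternatives were DESeq2 1.42.0, limma 3.58.1 on log2(FPKM + 1) and log2(FPKM + 0.1), other scalings and filters, the replicate block and each library left out. Motifs were searched in RefSeq promoters of GRCh38.p14.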

Additional observations from a re-analysis of the deposited data

How the results depend on the processing

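The number of members called was 2 in edgeR with median-of-ratios factors, total counts, no filter, a minimum mean of 1 FPKM or the replicate block. In DESeq2 it was 1 risen and 0 fallen (1 in all). DESeq2 gave an adjusted p to 5754 genes, among them IER5 (0.0339), JUN (0.176) and MYC (0.282), and none to EGR1 or the other members. Among other genes named above that edgeR called, CXCL8, DUSP8, MXD1 and ACTA2 had no adjusted p in DESeq2 either. limma on log2(FPKM + 1) and log2(FPKM + 0.1) called 0 members, 0 risen and 0 fallen, none on the other lists, and 3 and 2 genes in all. Leaving out 1 library gave 209 to 1317 genes, 0 to 3 members, 0 to 2 risen and 0 to 1 fallen. The replicate block gave 777 genes and the same 2 members called, IER5 and EGR1 (adjusted p = 0.0121 and 0.0128). Same-numbered libraries did not deviate together (r = 0.0318, -0.0102 and 0.00614), so the numbers were not taken as pairs. Of 136 member values under the alternatives, 119 kept direction and, where an adjusted p was given, side of the threshold. The 119 include DESeq2 values of FOS, FOSB, JUNB, JUND, IER2 and DUSP1, which had no adjusted p and kept direction only. The EGR1 value of DESeq2, also without an adjusted p, was not counted. A further 13 lost the call, 1 gained it and 3 reversed. FOS reversed without GFP replicate 1 (-0.0374, range -0.0374 to 0.239 over the libraries left out). FOSB reversed without GFP-812 replicate 1 (0.0564) or GFP replicate 3 (0.119, range -0.163 to 0.119). Among other named genes, AQP1 reversed with the replicate block (0.0115) and without GFP-812 replicate 2 (0.066) or GFP replicate 1 (0.577; -0.377 to 0.577), COL1A1 without GFP replicate 1 (-0.0186 to 0.167), HNRNPD without GFP-812 replicate 3 (-0.0371 to 0.00489) and VIM without GFP replicate 2 (-0.00344 to 0.0688). The cause was not tested. No scaling moved the median of all genes by as much as 0.1. FOSB could not be fitted by limma at its minimum of 1 FPKM. Counting error was largest for FOSB, FOS and EGR1 among the members. FOS in both groups and EGR1 in GFP-812 libraries varied by more than that error, an excess that was not tested.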
